A study of Tupaia belangeri chinensis with 12 samples.

Results

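LINC loci are intervals of the annotation used by the authors that carry no gene number of their own and are named after an annotated gene with a running index, such as LINC-POU3F3-5. A long intergenic noncoding RNA is a spliced or unspliced transcript that lies outside protein-coding genes and carries no long reading frame. Many such RNAs are made in only a few cell types, are present at low levels, and lie beside genes of transcription factors that act in development, whose expression pattern they often share. The function of most of them is unknown. The tables list 30985 LINC loci, of which 7849 had a value above 0 in any library. The 530 loci described here were selected on these same values: each reached 1 FPKM (fragments per kilobase of transcript, relative to all fragments of the library, so a level per length) in at least 3 of the 12 libraries.

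The cortex came from fetuses of the Chinese tree shrew (Tupaia belangeri chinensis), a small mammal close to primates, at embryonic day 37 by the labels, although the deposited tables are named for day 35. Layers were cut by laser from Nissl-stained frozen sections and comprise the ventricular zone (VZ), the home of radial glia at the ventricle, the inner and outer subventricular zones above it (ISVZ and OSVZ), which hold further progenitors and migrating neurons, and the cortical plate (CP), where neurons settle. No treatment is named. Each layer has 3 libraries, called VZ 1 to CP 3 after the number in their label, made from RNA with a poly(A) tail. Strain, sex and number of animals are not given, and no label says whether the 3 libraries within a layer are separate fetuses. P-values therefore reflect only how far these samples spread, and that spread may in part be technical. Genes that are Y-linked in other mammals were found in the libraries numbered 1 and were at or near 0 in those numbered 2 and 3, with values given below.

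Across libraries, 12157 to 13417 gene IDs reached 1 FPKM, and 379 to 424 of all 30985 LINC loci did, those outside the 530 included. Read depth is unknown. The bounds deposited with each FPKM had a median half-width of 6.58% to 10.8% of the value for annotated genes and of 14% to 23.9% for the 186 loci at 1 FPKM or more in every library. The layer labels were checked on marker genes. EOMES, a gene of intermediate progenitors, was at 31.9 to 74.7 scaled FPKM in the germinal zones (VZ, ISVZ and OSVZ) and at 0.139 to 0.371 in CP, while MEF2C, a transcription factor of maturing neurons, was at 5.81 to 19.2 and at 138 to 164. PAX6 (radial glia) and MKI67 (dividing cells) were lower in CP, and TBR1 (early projection neurons) was higher. HOPX, used in other species as a marker of outer radial glia, was highest in VZ. Markers of other cells also moved with the layers. The sum of TTR and AQP1, genes of the choroid plexus, was 34.6 to 2545 scaled FPKM in VZ and 0.0676 to 49.4 in the other layers. The sum of FOXJ1 and RSPH1, genes of motile cilia, was 13.1 to 58.9 in VZ and 0.0618 to 1.66 elsewhere. The sum of the microglia genes C1QB and CSF1R was 4.28 to 13.2 in the germinal zones and 0.547 to 0.639 in CP, and that of LUM and DCN (meninges) was 13.5 to 17.7 in CP and 0.102 to 4.76 elsewhere. OLIG1 and PDGFRA (oligodendrocyte precursors) summed to 27.8 to 40.8 in OSVZ and to 2.64 to 16.5 elsewhere, and DLX2 and GAD1 (interneurons) to 12.9 to 81.7 in the germinal zones and 3.27 to 7.23 in CP. PECAM1 and CLDN5 (endothelium) summed to 5.14 to 16.1. The part of these cells in the differences below was not tested.

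The threshold that chose the loci was a soft one. Of the 530, 186 reached 1 FPKM in every library and 80 in exactly 3. The third-highest FPKM of those 80 had a median of 1.16 and started at 1.00, and the 91 loci just outside, at 1 FPKM in 2 libraries, had a median of 0.797 and ended at 0.999. A further 276 loci reached 1 FPKM in 1 library and 30088 in none. Loci that reached 1 FPKM in the libraries of a single layer were few, with 8 in VZ, 1 in ISVZ, 0 in OSVZ and 9 in CP. These entered through the layer in which they are high, so their calls are no independent support for a difference. Among those named below are LINC-CYP26B1-1, LINC-ANKRD56-1, LINC-BUB1B-2, LINC-DERL1-3 and LINC-ZEB2-1 (CP), LINC-STT3B-52 (ISVZ) and LINC-HOPX-1 (VZ). The counts below describe the 530 loci and are given with the share of all genes called. CP was the layer with the highest mean for 184 loci, VZ for 141, ISVZ for 110 and OSVZ for 95.

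The loci were lower than annotated genes. The median over the 530 of the mean scaled FPKM was 1.86 (quartiles 1.01 and 5.35), against 6.61 for the 12397 annotated genes tested. Only 74 loci had a mean of 10 or more and 10 had a mean of 100 or more. Summed over the 530, the loci held 1.73% to 2.41% of all FPKM of a library. They also spread more within a layer. The median SD of log2(scaled FPKM + 1) within layers was 0.358 for the loci and 0.192 for annotated genes, and it was 0.31 against 0.174 among those with a mean of 10 or more.

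The name "intergenic" was checked against the positions in the tables, since the sources used here give neither the build nor the strand of the reads. Of the 530 loci, 284 (53.6%) overlapped at least 1 numbered gene of the annotation and 75 overlapped 2 or more. For an overlapping locus, reads of the gene and of the locus cannot be told apart here. Among the 530, 48 overlapped at least 1 other of the 530, and reads there could have been divided between loci. The 246 loci outside genes lay at a median of 8267 bases from the nearest one, with 108 within 5000 bases and 57 beyond 50000 bases. Spans were broad, from 168 to 799464 bases with a median of 5227. The gene in the name was found on the same chromosome or contig for 499 loci and was the nearest gene for 326. A total of 448 genes gave their names to the 530 loci, and 28 loci carry the name of a ribosomal protein gene, many of them of a copy. Of 44 symbols of well-known long noncoding genes looked for in the tables used here, 0 were found, so a locus is described only by its name and position.

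The first question was which loci differ between the layer of settled neurons and the germinal zones. By limma's adjusted p, 212 of the 530 loci differed between CP and the mean of VZ, ISVZ and OSVZ, 103 higher and 109 lower in CP. Over all 14106 genes tested 52.7% were called, 24% higher and 28.7% lower, against 40% of the loci. Among loci with a mean of 10 or more, 35 of 74 were called, and among annotated genes of that level 56.8%. The 186 loci at 1 FPKM or more in every library had 48 called higher and 27 called lower. In 117 of the 212, the 3 CP libraries did not overlap the 9 others, where 32.4% of all genes were called without overlap. At least a 2-fold difference (on the scale of scaled FPKM + 1) was seen in 52 of the loci called higher and 40 of those called lower, where 7.29% of all genes were called higher and 8.56% called lower at that size. Quantile normalisation in place of the median scaling gave 128 higher and 76 lower. In bulk tissue, fewer cells of a type and less RNA per cell cannot be told apart. All log2 differences below are of log2(scaled FPKM + 1) with their SE, and they understate changes of low loci.

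**Figure D1:**
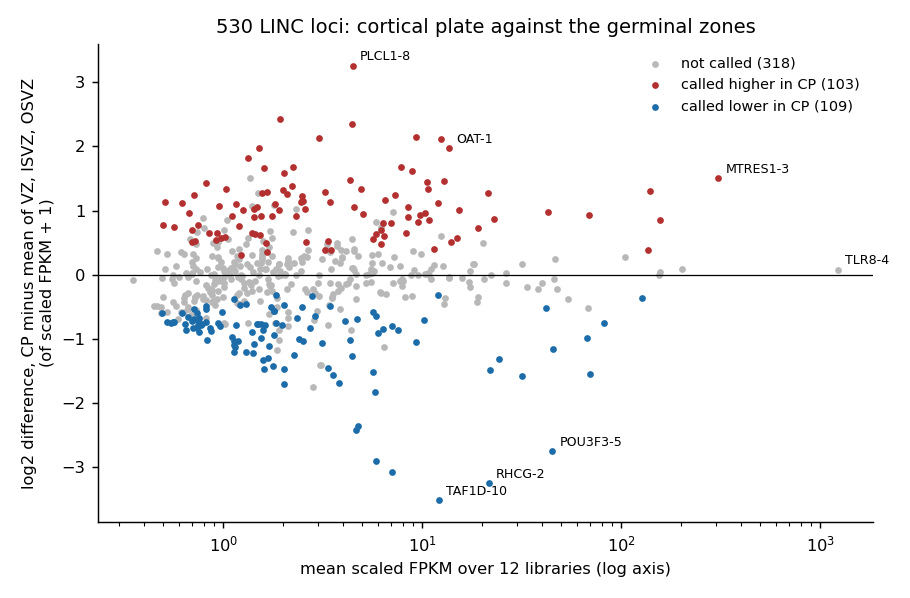
Difference of the 530 LINC loci between the cortical plate and the germinal zones. The x axis is the mean scaled FPKM over 12 libraries on a log axis and the y axis the log2 difference of scaled FPKM + 1, CP minus the mean of the other 3 layers. Each point is a locus, in red for the 103 called higher in CP, blue for the 109 called lower and grey for the rest. The lowest point is LINC-TAF1D-10 and the highest LINC-PLCL1-8.

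Among loci lower in CP, several lie beside genes of radial glia. SOX1, SOX2, SOX3 and SOX9 encode transcription factors that keep neural progenitors undifferentiated. Beside SOX1 on contig4341 lie LINC-SOX1-1, LINC-SOX1-2, LINC-SOX1-3 and LINC-SOX1-7, at 3930 to 51884 bases from the gene. LINC-SOX1-3 was at 16.3, 11 and 10.4 scaled FPKM in VZ 1 to 3, 3.27, 9.44 and 10.6 in ISVZ, 3.24, 3.18 and 2.63 in OSVZ and at or close to 0 in CP. All 9 germinal libraries lay above all CP libraries, and the log2 difference was -2.92 ± 0.25 (adjusted p = 3.76e-06). LINC-SOX1-2, which overlaps it and may share its reads, was at 11.8, 10.5 and 9.55 in VZ and 0.278, 0.35 and 0 in CP, with a difference of -2.36 ± 0.18 (adjusted p = 1.28e-06). LINC-SOX1-1 (difference -1.47 ± 0.16, adjusted p = 2.38e-05) and LINC-SOX1-7 (-0.73 ± 0.16, adjusted p = 0.0023) were also lower in CP. SOX1 itself fell with them, from 34.3, 40.6 and 37.7 in VZ to 1.45, 1.64 and 0.657 in CP, a difference of -3.66 ± 0.18 (adjusted p = 7.88e-08).

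LINC-SOX9-15 (chromosome 16, 52030007 to 52090773) lies 387024 bases from SOX9, its nearest annotated gene. It was lower in each layer than in the one before, from 9.87, 8.02 and 9.15 in VZ to 5.77, 7.64 and 6.51 in ISVZ, 3.56, 2.98 and 1.79 in OSVZ and 0.544, 0.128 and 0.0331 in CP. The libraries of no layer overlapped those of another, and the difference in CP was -2.43 ± 0.16 (adjusted p = 6.00e-07). The step from VZ to ISVZ was small, at 8.02 against 7.64 where the libraries came closest, and was not called. Libraries of ISVZ and VZ did not overlap in 28.3% of all genes, called or not. SOX9 had a difference of -2.54 ± 0.13 (adjusted p = 9.72e-08). LINC-SOX2-2 was lower in CP by the same test (-1.43 ± 0.34, adjusted p = 0.0042), with values of 2.61 to 3.2 in VZ and 0 to 0.109 in CP. LINC-SOX3-1, which overlaps the copy SOX3li1, was at 4.99, 1.32 and 5.14 in VZ and at 0.183, 0 and 0 in CP (-1.33 ± 0.37, adjusted p = 0.0114). Its spread within VZ and ISVZ was wide, and without the filter on low values its call was lost (adjusted p = 0.0524).

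In all, 15 of the 530 loci carry the name of, or lie nearest to, a gene of a list of 77 radial glia and progenitor genes. Of these 15, 11 were lower in CP and 1 was higher, where 28.7% of all genes were called lower and 24% higher. Their median log2 difference was -1.12, where the median of all 530 loci was -0.01 and that of all genes -0.05. The loci were drawn together by their neighbours and 4 of them surround 1 gene, so they are not independent of each other, and the list was chosen with earlier results of these libraries known. The 11 include LINC-HOPX-1, which reached 1 FPKM only in VZ and entered the set through it. The locus that was higher is LINC-PTPRZ1-1, at 52108 bases from PTPRZ1, a receptor phosphatase of radial glia. It was at 0.656, 0.313 and 0.685 in VZ and 1.15, 1.04 and 2.5 in CP (difference 0.78 ± 0.17, adjusted p = 0.00242), while PTPRZ1 was lower in CP (-1.38 ± 0.23, adjusted p = 0.000370). The other 3 did not pass this test, among them LINC-HES6-1 (-0.04 ± 0.32) and LINC-NFIB-3 (-0.69 ± 0.35). NFIB is a transcription factor of the forebrain and HES6 a Notch-related factor.

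The POU3F genes encode POU-domain transcription factors of progenitors and young neurons. LINC-POU3F4-1 (chromosome 3, 63344100 to 63511528) lies 1657 bases from POU3F4. It was at 10.7, 8.85 and 11.5 in VZ, 6.95, 13.6 and 16.5 in ISVZ, 6.06, 4.7 and 4.83 in OSVZ and 0.451, 0 and 0 in CP, with 2 CP libraries listed at 0. Its difference was -3.08 ± 0.21 (adjusted p = 6.63e-07), and that of POU3F4 was -2.33 ± 0.13 (adjusted p = 1.62e-07). Both were high in all germinal libraries and low in all CP libraries.

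The 6 LINC loci named after POU3F3 lie on chromosome 12, and only some were lower in CP. LINC-POU3F3-5 (chromosome 12, 25782747 to 25791514) overlaps POU3F3 and was at 86.7, 66.1 and 80.9 in VZ, 58, 45.3 and 70.7 in ISVZ, 38.2, 41.6 and 29.7 in OSVZ and 10.6, 7.16 and 4.78 in CP. It had the lowest difference of the 6, -2.76 ± 0.20 (adjusted p = 9.17e-07). POU3F3 was at 65.8, 49 and 59.2 in VZ and 34.5, 25.6 and 38.1 in CP, a difference of -0.99 ± 0.16 (adjusted p = 0.000367). LINC-POU3F3-7 lies within LINC-POU3F3-5 and was at 18.2 to 34.4 in the germinal zones and 7.88 to 9.74 in CP (-1.48 ± 0.18). LINC-POU3F3-1 (-0.99 ± 0.18) and LINC-POU3F3-2 (-1.16 ± 0.14), which also overlap POU3F3, were lower in CP as well. The 2 loci farthest from the gene, LINC-POU3F3-22 (-0.01 ± 0.28, adjusted p = 0.974) and LINC-POU3F3-23 (-0.26 ± 0.21, adjusted p = 0.315), did not pass the test for CP, and the former had overlapping values of 4.11 to 14.5 and 6.29 to 14.8.

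Farther along the same stretch of chromosome 12 lie 7 loci named after RPL36A, a ribosomal protein gene, from 26428232 to 27051587. Their nearest annotated gene is the copy RPL36Ali2, listed at 0 to 1.5 scaled FPKM, or for LINC-RPL36A-37 an unnamed reading frame. LINC-RPL36A-37 was at 2.75, 0.778 and 0.849 in VZ and 0.151, 0 and 0 in CP (-1.22 ± 0.21, adjusted p = 0.000532). LINC-RPL36A-8 was highest in OSVZ 1 and OSVZ 2, at 15.8, 14.6 and 5.58 in OSVZ 1 to 3, against 3.55, 0 and 0.543 in CP (-1.84 ± 0.51, adjusted p = 0.0105), and without CP 2 its call was lost (adjusted p = 0.0721). The loci LINC-RPL36A-31, LINC-RPL36A-33 and LINC-RPL36A-35 were lower in CP with adjusted p of 0.0268, 0.013 and 0.0183. Each of these 3 calls was lost without CP 2 (0.0867, 0.0897 and 0.0736), and those of LINC-RPL36A-31 and LINC-RPL36A-35 also without CP 1 (0.0838 and 0.0584). LINC-RPL36A-30 and LINC-RPL36A-32 did not pass the test for CP.

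Other loci with low differences lie far from the annotated genes named so far. LINC-TAF1D-10 (chromosome 11, 81813484 to 81930824) had the lowest log2 difference of all 530 loci, -3.52 ± 0.32 (adjusted p = 4.78e-06). It was at 21.2, 12.5 and 8.65 in VZ, 22.6, 39.5 and 14.6 in ISVZ, 7.84, 12.2 and 5.05 in OSVZ and 0.118, 0.215 and 0.51 in CP, and the nearest annotated gene is 493977 bases away. LINC-MFAP1A-10 lies on the same chromosome (chromosome 11, 82012133 to 82038208) and was highest in ISVZ, at 3.88, 3.66 and 4.83, with 1.86, 1.72 and 1.65 in VZ and 0, 0.234 and 0 in CP (-1.71 ± 0.13). LINC-RHCG-2 (chromosome 23, 39709555 to 39729249) was at 54.6, 51.8 and 48.2 in VZ, 18.1, 22.6 and 21.4 in ISVZ, 10.9, 19.3 and 7.95 in OSVZ and 1.37, 2.76 and 0.884 in CP. Its VZ libraries lay above every other library and its CP libraries below, with a difference in CP of -3.26 ± 0.23 (adjusted p = 9.31e-07). RHCG, an ammonium transporter gene, was listed at 0 to 0.213, and the nearest annotated gene, the copy TICRRli1 of a replication gene, had a difference of -1.58 ± 0.16. LINC-SORL1-9 (-1.59 ± 0.23) and LINC-CRYBA4-4 (-1.57 ± 0.25) complete the 10 loci with the lowest differences among those called with no overlap.

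**Figure D2:**
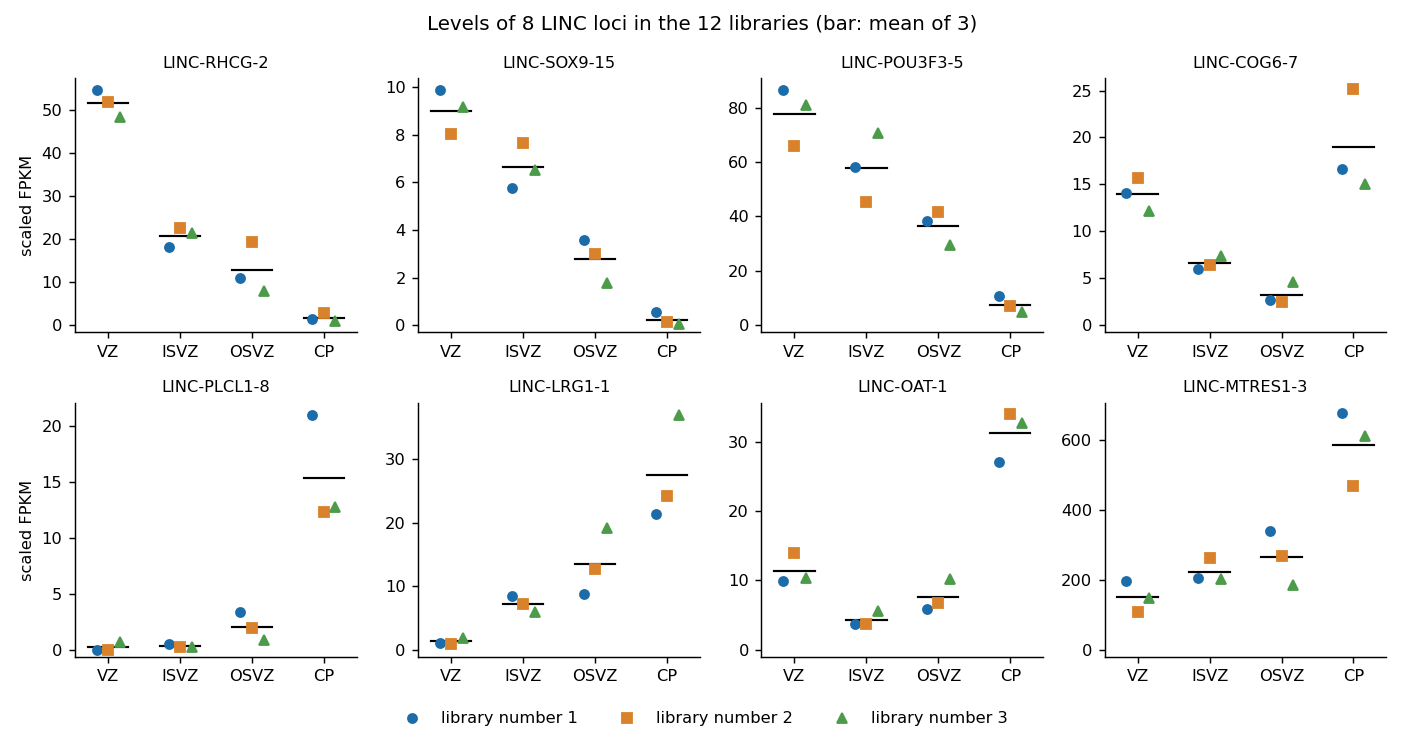
Scaled FPKM (y axis, from 0) of 8 LINC loci in the 4 layers (x axis). Each point is 1 library, with its shape and colour giving its number, and the bar is the mean of 3. LINC-RHCG-2, LINC-SOX9-15 and LINC-POU3F3-5 decrease from VZ to CP, LINC-COG6-7 and LINC-OAT-1 are lowest in the subventricular zones, and LINC-PLCL1-8, LINC-LRG1-1 and LINC-MTRES1-3 are highest in CP.

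Among the loci higher in CP, LINC-PLCL1-8 (chromosome 1, 180697037 to 180720574) had the largest difference, 3.26 ± 0.26 (adjusted p = 2.01e-06). It was at 0, 0 and 0.713 in VZ, 0.502, 0.292 and 0.216 in ISVZ, 3.37, 1.92 and 0.836 in OSVZ and 21, 12.3 and 12.7 in CP. All CP libraries lay above all others, and OSVZ 1 was the highest of the rest. PLCL1, a phospholipase-related signalling gene, was also higher in CP (1.17 ± 0.16). LINC-CYP26B1-1 overlaps CYP26B1, which encodes an enzyme that breaks down retinoic acid. The locus was at 0.139 to 0.852 in the germinal zones and at 6.71, 4.43 and 8.54 in CP, and CYP26B1 at 0.0168 to 0.478 and 2.85, 1.64 and 3.86. LINC-CYP26B1-1 reached 1 FPKM only in CP, the layer through which it entered the set. Differences were 2.43 ± 0.17 for the locus and 1.62 ± 0.18 for the gene.

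LINC-MEF2C-1 spans 85569360 to 86020540 on chromosome 11 and overlaps MEF2C. It was at 0.30 to 2.85 in the germinal zones and 8.63, 5.85 and 10.8 in CP (2.14 ± 0.26, adjusted p = 4.67e-05). LINC-LRG1-1, a locus of 234 bases on chromosome 28, was higher in each layer than in the one before, from 1.08, 0.986 and 1.93 in VZ to 8.5, 7.25 and 5.9 in ISVZ, 8.76, 12.7 and 19.1 in OSVZ and 21.3, 24.2 and 37 in CP. The libraries of no layer overlapped those of another, and its difference in CP was 2.12 ± 0.22 (adjusted p = 1.50e-05). The step from ISVZ to OSVZ was not called, with 8.5 against 8.76 where the libraries came closest. Libraries of OSVZ and ISVZ did not overlap in 24.5% of all genes, called or not. The step from OSVZ to CP (1.00 ± 0.27, adjusted p = 0.0174) was lost without OSVZ 1 (adjusted p = 0.0712) and without CP 3 (0.0646). LRG1 itself, a secreted glycoprotein gene, was listed at 0 to 0.709.

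Other loci were high in both VZ and CP and lower between them. LINC-OAT-1 lies 183 bases from OATli2, a copy of the ornithine aminotransferase gene. It was at 9.89, 14 and 10.4 in VZ, 3.67, 3.67 and 5.64 in ISVZ, 5.81, 6.77 and 10.2 in OSVZ and 27, 34 and 32.7 in CP. ISVZ lay below VZ with no overlap (-1.23 ± 0.21, adjusted p = 0.00535, or -1.12 and 0.103 without VZ 1 and VZ 2, which leaves VZ 3 alone) and CP above all (1.98 ± 0.17, adjusted p = 3.44e-06). OATli2 ran the same course, at 15.3, 29.8 and 19.1, 7.69, 9.1 and 10.5, 9.52, 10.6 and 21.8 and 53, 73.3 and 47.1. LINC-COG6-7 overlaps LHFPL6 and was at 14.1, 15.7 and 12.2 in VZ, 5.95, 6.39 and 7.37 in ISVZ, 2.65, 2.45 and 4.59 in OSVZ and 16.6, 25.2 and 15.1 in CP. Its OSVZ libraries were the lowest, with OSVZ minus VZ at -1.85 ± 0.21 (adjusted p = 0.000252) and CP minus OSVZ at 2.24 ± 0.21 (adjusted p = 2.87e-05). LHFPL6 had the same trough, at 1.05 to 2.07 in OSVZ against 5.96 to 6.97 in VZ and 6.38 to 10.7 in CP.

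The remaining loci among the 10 highest differences called with no overlap were LINC-SLC2A12-2 (2.36 ± 0.26), LINC-LIPI-5 (1.98 ± 0.33), LINC-ANKRD56-1 (1.82 ± 0.15), LINC-SMS-1 (1.68 ± 0.34) and LINC-SLITRK3-1 (1.67 ± 0.30). LINC-ANKRD56-1 lies 17 bases from SOWAHB, and both were low in the germinal zones (0.128 to 0.957 and 0.127 to 0.938) and higher in CP (2.87 to 5.24 and 2.94 to 4.16). LINC-SLITRK3-1 lies 10237 bases from SLITRK3, a synaptic adhesion gene, and was at 0.217, 0 and 1.08 in VZ and 6.0, 5.89 and 4.18 in CP. In LINC-SMS-1 the OSVZ libraries were far apart (8.54, 2.35 and 13.2). The calls in CP of these 10 loci and of the 10 lowest held when any 1 library was left out. Of the 10 highest, LINC-CYP26B1-1 and LINC-ANKRD56-1 reached 1 FPKM only in CP and entered the set through it.

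Loci named after, or nearest to, a list of 76 neuron transcription factors numbered 19, of which 4 were higher in CP and 8 lower, with a median log2 difference of -0.38, where 24% of all genes were called higher and 28.7% lower. The 4 were LINC-MEF2C-1, LINC-SOX11-14, LINC-ZEB2-1 (0.92 ± 0.13) and LINC-POU3F1-1 (0.80 ± 0.25). ZEB2 acts in neuron differentiation and LINC-ZEB2-1 lies 314 bases from it, at 0.439 to 0.921 in the germinal zones and 2.07 to 2.42 in CP. That locus reached 1 FPKM only in CP and entered the set through it. Besides the POU3F loci, the lower ones were LINC-ZEB1-1, LINC-NHLH1-1 and LINC-ONECUT2-1. LINC-ZEB1-1 overlaps ZEB1, a factor of progenitors, and was at 2.52, 1.56 and 2.18 in VZ and 0.162, 0.0795 and 0.166 in CP. LINC-NHLH1-1 lies beside NHLH1, a factor of newborn neurons, and was at 0.577 to 3.35 in the germinal zones and 0 to 0.415 in CP. LINC-LMO3-2, with overlapping values of 0.288 to 2.62 and 0.425 to 4.0, did not pass. Of the loci beside listed genes, LINC-SOX2-2, LINC-PTPRZ1-1, LINC-HES6-1, LINC-ZEB1-1, LINC-ZEB2-1, LINC-NHLH1-1, LINC-ONECUT2-1, LINC-POU3F1-1 and LINC-CDKN1B-1 were named after their values were seen, and no processing alternative was run on them.

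Few loci lie beside genes of the other lists, whose counts stand beside 24% of all genes called higher in CP and 28.7% called lower. Adhesion and axon guidance genes (112 listed) had 6 loci, with 1 higher and 1 lower in CP, the latter LINC-CDH4-2 at 3.28 to 8.96 and 1.13 to 2.59. CDH4, a cadherin gene 167 bases from it, was at 2.45 to 7.01 and 0.882 to 2.24. Channel and synapse genes (87 listed) had 2 loci, both higher in CP, LINC-DERL1-3 overlapping KCNJ6 and LINC-KCNJ3-1 beside KCNJ3, which are potassium channel genes. LINC-DERL1-3 reached 1 FPKM only in CP and entered the set through it. The call of LINC-KCNJ3-1 (adjusted p = 0.0297) was lost without CP 1 (0.0553), CP 2 (0.12) or CP 3 (0.0694). Cell cycle genes (45 listed) had 4 loci, of which LINC-BUB1B-2 was higher in CP and LINC-CDKN1B-1 lower.

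The subventricular zones were compared next. The label OSVZ denotes the outer germinal zone that is enlarged in primates. OSVZ differed from VZ in 110 of the 530 loci, 55 higher and 55 lower, where 27.8% of all genes were called (11.7% higher and 16.1% lower). ISVZ differed from VZ in 36 loci, 10 higher and 26 lower (8.69% of all genes, with 1.54% higher and 7.15% lower), and OSVZ from ISVZ in 2, both lower (0.603% of all genes). CP differed from OSVZ in 112, 53 higher and 59 lower (31% of all genes, with 13.6% higher and 17.4% lower), or 66 higher and 30 lower with quantile normalisation. Over all 4 layers together the F test called 213 loci, where it called 51.7% of all genes. The libraries of both sides did not overlap in 107 of the loci called for OSVZ against VZ (27.5% of all genes), 35 of those for ISVZ against VZ (8.66%) and 105 of those for CP against OSVZ (30.1%). These comparisons share libraries with each other. The 2 loci that differed between the subventricular zones were LINC-SOX1-2, at 6.0, 4.75 and 8.42 in ISVZ and 1.11, 2.0 and 2.42 in OSVZ (-1.38 ± 0.22, adjusted p = 0.0319), and LINC-SOX9-15 (-1.04 ± 0.20, adjusted p = 0.0499). Their ISVZ and OSVZ libraries did not overlap. The call of LINC-SOX1-2 was lost without VZ 1, VZ 2, ISVZ 2, ISVZ 3, OSVZ 1 or OSVZ 3 (adjusted p = 0.0515 to 0.149), and that of LINC-SOX9-15 without any library but ISVZ 1 or OSVZ 2 (0.0556 to 0.203).

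Among the 10 loci with the lowest OSVZ minus VZ were LINC-SOX1-2 and LINC-SOX1-3, beside a gene of the radial glia list. Of the 15 loci beside genes of that list, 8 were lower in OSVZ and 0 higher, where 16.1% of all genes were called lower and 11.7% higher. LINC-SOX1-2 was at 11.8, 10.5 and 9.55 in VZ and 1.11, 2.0 and 2.42 in OSVZ, a difference of -2.05 ± 0.22 (adjusted p = 0.000196). LINC-RHCG-2 (-2.02 ± 0.29, adjusted p = 0.00063) and LINC-SOX9-15 (-1.43 ± 0.20, adjusted p = 0.000601) also fell, with no overlap. QKI encodes an RNA-binding protein of glia, and 2 loci named after it on chromosome 4 fell. LINC-QKI-9 was at 5.01, 8.29 and 17.9 in VZ and 0.144, 1.7 and 0.543 in OSVZ (-2.60 ± 0.48, adjusted p = 0.00263), and LINC-QKI-22 at 5.31, 2.91 and 3.79 and 0.819, 0.254 and 0.639 (-1.66 ± 0.22, adjusted p = 0.000499). QKI itself was at 40.2, 38.3 and 39.7 in VZ and 16.9, 19.5 and 15.4 in OSVZ. LINC-HOPX-1, 28 bases from HOPX and overlapping SPINK2li1, was at 3.29, 2.87 and 3.32 in VZ, 0.939, 0.616 and 0.845 in ISVZ and 0.42, 0.686 and 0.642 in OSVZ (-1.40 ± 0.14, adjusted p = 0.000177), and was picked out after its values were seen. This locus, 1 of the 8 lower in OSVZ, reached 1 FPKM only in VZ and entered the set through it. HOPX was at 3.23, 3.83 and 3.53 in VZ and 0.916, 0.343 and 1.13 in OSVZ.

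Other loci were highest in VZ and low in all other layers. LINC-FGF1-1, within the growth factor gene FGF1, was at 4.56, 7.93 and 2.16 in VZ and 0.198 to 1.53 in ISVZ, and OSVZ minus VZ was -1.89 ± 0.39 (adjusted p = 0.00475). LINC-PDGFRB-1, within the gene of a growth factor receptor of pericytes and progenitors, was at 3.29, 4.45 and 5.55 in VZ and 0.202 to 2.08 in the subventricular zones (OSVZ minus VZ -1.50 ± 0.36, adjusted p = 0.0106). LINC-RTL1-2 was at 9.54, 1.39 and 11.3 in VZ and at or close to 0 in OSVZ (-2.76 ± 0.56, adjusted p = 0.00404). The choroid plexus and cilia markers given above were also highest in VZ, most of all in VZ 1 and VZ 2 for TTR (529, 2514 and 33.8 in VZ 1 to 3).

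An alternative added after the data were seen left out VZ 1 and VZ 2. VZ was then VZ 3 alone, assumed to vary as the libraries of the other layers do, so calls kept and lost there rest on that 1 library. It called 29 loci. LINC-SOX1-2, LINC-RHCG-2, LINC-SOX9-15, LINC-QKI-9, LINC-QKI-22, LINC-COG6-7 and LINC-RTL1-2 kept their calls. OSVZ minus VZ shrank by over 1.5 times in LINC-LYRM9-5, to -0.94 from -1.72 (adjusted p = 0.331), and in LINC-FGF1-1, to -1.12 (0.163). The calls of LINC-PDGFRB-1, LINC-POU3F3-5, LINC-RPL36A-33 and LINC-SOX1-3 were lost too, with adjusted p = 0.0713, 0.0802, 0.0624 and 0.0691. Their differences were -1.79, -1.14, -1.75 and -1.51, against -1.50, -1.08, -1.74 and -1.73 with all libraries. The calls of LINC-RTL1-2 (adjusted p = 0.0777), LINC-FGF1-1 (0.0724) and LINC-RPL36A-33 (0.107) were lost without the 4 libraries numbered 1, and that of LINC-LYRM9-5 without VZ 1 (0.0601).

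Loci higher in OSVZ than in VZ were led by LINC-LRG1-1 (2.60 ± 0.27, adjusted p = 0.000196). LINC-NPY-1, 390 bases from the neuropeptide gene NPY, was listed at 0 in all VZ libraries and at 2.06, 5.21 and 2.85 in OSVZ (2.07 ± 0.49, adjusted p = 0.00933), with 0, 0 and 1.87 in ISVZ and 2.06, 0 and 0 in CP. Its deposited lower bound was 0 in every library, with upper bounds of 5.97, 12.8 and 7.1 in OSVZ 1 to 3. NPY had overlapping values of 26.5 to 33.1 in VZ and 21.1 to 62.9 in OSVZ. LINC-TMEM182-13 was at 0, 0 and 0.449 in VZ, 6.32, 2.96 and 1.59 in OSVZ and 1.1, 0.691 and 0.295 in CP (1.90 ± 0.41, adjusted p = 0.00562). The mean of each was highest in OSVZ and lower again in CP. For CP against OSVZ the call of LINC-NPY-1 was lost without OSVZ 2 (adjusted p = 0.125), OSVZ 3 (0.0581), CP 2 (0.122) or CP 3 (0.114). That of LINC-TMEM182-13 was lost without OSVZ 1 (0.112), OSVZ 2 (0.061), CP 2 (0.0664) or CP 3 (0.0893).

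TENM4 (ODZ4 in the locus names) encodes a teneurin, a cell adhesion protein of migrating neurons. LINC-ODZ4-1, which overlaps it, was at 3.74, 4.54 and 6.94 in VZ, 11.4, 12 and 7.95 in ISVZ, 10.7, 16.6 and 13.1 in OSVZ and 7.87, 12.5 and 6.96 in CP, and OSVZ minus VZ was 1.27 ± 0.25 (adjusted p = 0.00352). LINC-ODZ4-4, 17695 bases from it, was at 1.24, 0.315 and 0.585 in VZ and 5.56, 3.78 and 2.41 in OSVZ (1.51 ± 0.42, adjusted p = 0.020), a call lost without VZ 2 (adjusted p = 0.0765), VZ 3 (0.0564), OSVZ 1 (0.0744) or OSVZ 2 (0.0501). TENM4 was at 5.59, 3.58 and 3.93 in VZ and 18.9, 12.5 and 9.23 in OSVZ (1.40 ± 0.38, adjusted p = 0.0173). LINC-NEUROD2-1 overlaps NEUROD2, a factor of young projection neurons, and was at 0.547, 0 and 1.03 in VZ and 3.65, 2.53 and 1.94 in OSVZ (1.31 ± 0.32, adjusted p = 0.0098). NEUROD2 was at 25.1, 7.32 and 20.8 and 110.1, 101 and 64.

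LINC-HMGN2-9 was at 1.93, 2.02 and 2.23 in VZ, 7.12, 5.13 and 23.2 in OSVZ and 18.9, 23.2 and 20.2 in CP (OSVZ minus VZ 1.80 ± 0.38, adjusted p = 0.0052). It overlaps CDK5R2, which encodes an activator of a neuronal kinase and is listed at or close to 0 in all 12 libraries. OSVZ 3 was the highest OSVZ library in this locus and in LINC-ANKRD43-1 (1.73, 1.6 and 6.14 in OSVZ 1 to 3, against 0.337, 0.505 and 0.734 in VZ, difference 1.29 ± 0.32). LINC-RWDD3-4 (1.97 ± 0.57), LINC-DTWD2-37 (1.76 ± 0.42) and LINC-RPL5-40 (1.49 ± 0.41) complete the 10. The call of LINC-RWDD3-4 was lost without VZ 1 (adjusted p = 0.0665), VZ 2 (0.0867), OSVZ 1 (0.0625) or OSVZ 2 (0.084), and that of LINC-RPL5-40 without VZ 2 (0.0815) or OSVZ 1 (0.0774). With VZ 3 as the only VZ library, LINC-LRG1-1 kept its call and the other 9 lost theirs. Among those 9 the difference was 0.85 in LINC-NEUROD2-1 to 2.07 in LINC-NPY-1, and it shrank by over 1.5 times in LINC-DTWD2-37 (to 0.87), LINC-RWDD3-4 (to 1.26) and LINC-NEUROD2-1.

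In ISVZ against VZ the loci with the lowest differences were LINC-FGF1-1, LINC-MRPL23-2, LINC-PDGFRB-1, LINC-QKI-22 and LINC-ATP6V1FNB-1, at -1.76, -1.54, -1.37, -1.32 and -1.32. LINC-QKI-22 held its call when any 1 library was left out. The other 4 lost theirs without VZ 2 (adjusted p = 0.0817 to 0.146) or ISVZ 1 (0.0692 to 0.117) and in further omissions. The highest were LINC-LRG1-1 (1.83), LINC-MTRES1-4 (1.11), LINC-RPL31-16 (1.11), LINC-STT3B-52 (1.01) and LINC-ODZ4-1 (0.93). LINC-STT3B-52 was listed at 0 in all 3 VZ libraries and at 1.01, 0.998 and 1.03 in ISVZ, with 0, 0.28 and 0.135 in OSVZ (1.01 ± 0.18, adjusted p = 0.00602). This locus reached 1 FPKM only in ISVZ and entered the set through that layer, so its call is no independent support. Its deposited lower bounds in ISVZ 1 to 3 were 0, 0 and 0.021. LINC-STT3B-52 and LINC-LRG1-1 held when any 1 library was left out, while LINC-MTRES1-4 lost its call without VZ 2 (adjusted p = 0.0515) or ISVZ 2 (0.0568). LINC-RPL31-16 lost its call without any 1 of the VZ and ISVZ libraries, OSVZ 2 or CP 3, and LINC-ODZ4-1 without VZ 1, VZ 2, ISVZ 1, ISVZ 2, OSVZ 3 or CP 1. Without VZ 1 the adjusted p was 0.117 and 0.107. The count of 36 loci fell to 14 without VZ 2, 16 without ISVZ 2, 18 without ISVZ 1 and 22 without VZ 3.

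The 6 loci with the highest mean levels were not those with the largest differences. LINC-TLR8-4, 400 bases on contig45854, was the highest, at 1304, 967 and 971 in VZ, 1323, 1205 and 1282 in ISVZ, 1362, 1502 and 1026 in OSVZ and 1349, 1351 and 1120 in CP. Its layers overlapped and the F test over layers did not pass (adjusted p = 0.498), and TLR8, an innate immune receptor gene 34571 bases away, was listed at 0.00854 to 0.326. LINC-MTRES1-3 (chromosome 4, 58610424 to 58616733) overlaps CD24li1, a copy of the gene of CD24, a surface protein of young neurons. It was at 196, 108 and 149.6 in VZ, 206, 264 and 203 in ISVZ, 340.5, 269 and 187 in OSVZ and 678, 471 and 613 in CP, and was higher in CP, with a difference of 1.51 ± 0.21 (adjusted p = 0.000108). CD24li1 was at 1.32 to 7.96 in the germinal zones and 7.46 to 10.3 in CP, far below the locus per length. LINC-MTRES1-2 contains it and was at 56.2 to 140.4 and 242 to 251, so the reads of the 3 LINC loci there could have been divided among them.

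LINC-C8ORF45-2, within MCMDC2, was at 125, 61.4 and 83.1 in VZ and 375, 185 and 152 in CP (0.85 ± 0.26, adjusted p = 0.0187), a call lost without CP 1 (adjusted p = 0.123). LINC-FRMD8-1, which overlaps another of the 530 loci, ranged from 31.9 to 302 and did not pass the F test over layers (adjusted p = 0.973). It differed between libraries of different number, as given below. LINC-MRPL42-8, the last of them, had 1 library far above the rest, ISVZ 2 at 558, with 157, 81.2 and 58.8 in VZ.

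Genes that give their name to 4 or more loci are POU3F3, SOX1, RPL36A, RPL7 and NPM1. The 4 loci named after NPM1, a nucleolar protein gene with many copies, differed from one another. LINC-NPM1-11 (0.91 ± 0.16) was higher in CP, LINC-NPM1-23 (-0.80 ± 0.18) was lower and LINC-NPM1-10 (0.26 ± 0.45, adjusted p = 0.647) did not pass. LINC-NPM1-26 overlaps LINC-NPM1-11 and was higher (0.91 ± 0.26), a call lost without CP 1 (adjusted p = 0.0592). Of the 4 named after RPL7, LINC-RPL7-104 and LINC-RPL7-74, which overlap on contig3200, were at 13 to 24.9 and 3.63 to 8.36 in the germinal zones and at 34.2 to 35.8 and 8.37 to 11.8 in CP, both higher there. LINC-RPL7-12 was higher by 0.52 ± 0.14, a call lost without CP 1 (0.0656), and LINC-RPL7-190, at 0 in 9 of 12 libraries, did not pass.

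The loci were then set beside the nearest annotated gene. The nearest gene was itself tested for 372 loci, with 336 distinct genes. The mean level of the locus was above that of the gene in 107 of the 372 pairs, and the median ratio of locus to gene was 0.425. Across the 372 pairs, the log2 difference in CP of the locus followed that of the gene with Pearson r = 0.59 and Spearman rho = 0.581. Pairs share libraries, and some share a gene, so the r is a description across pairs and carries no p. It was 0.618 for the 217 loci that overlap the gene, 0.659 for 86 loci within 5000 bases, 0.527 for 42 loci between 5000 and 50000 bases and 0.369 for 27 loci beyond. Annotated genes and their own nearest annotated gene had r = 0.12 over 7273 pairs (0.139 where they overlap and 0.0719 within 5000 bases). For OSVZ minus VZ the values were 0.535 for the loci and 0.12 for annotated genes. The likeness to the gene in the name (352 pairs) was 0.526 in CP.

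**Figure D3:**
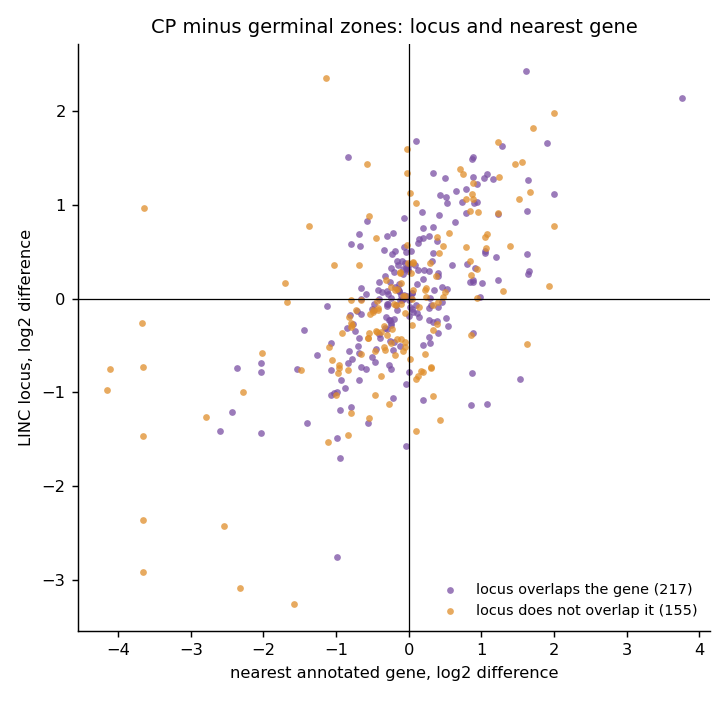
Log2 difference, CP minus the germinal zones, of 372 LINC loci (y axis) against that of their nearest annotated gene (x axis), with purple points for the 217 loci that overlap the gene and orange points for the 155 that do not. Points run from lower left to upper right.

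**Figure D4:**
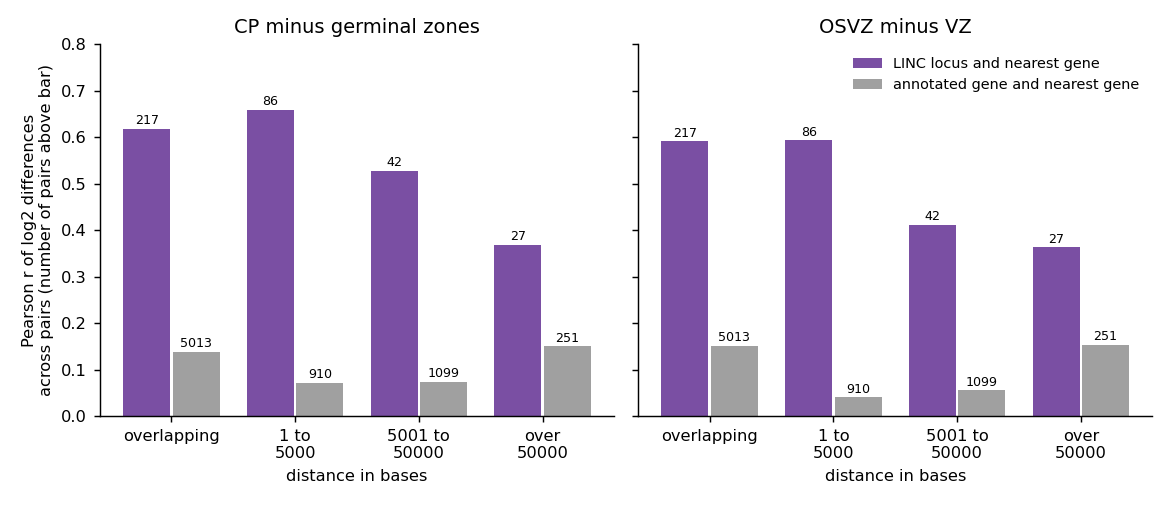
Pearson r across pairs (y axis, from 0) of the log2 differences of a LINC locus and its nearest gene (purple) and of an annotated gene and its nearest gene (grey), by distance in bases (x axis), for both comparisons. The number of pairs stands above each bar. Purple bars exceed grey bars in each distance class.

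Where both the locus and its nearest gene were called in CP, they mostly went the same way. Among overlapping pairs 49 of 54 had the same direction, and among pairs that do not overlap 45 of 53. For OSVZ minus VZ the counts were 22 of 25 and 23 of 24. Directions were not counted for annotated genes and their nearest gene, so no share of those pairs stands beside these counts. The 13 pairs of opposite direction in CP were looked at after their values were seen. BUB1B, a mitotic checkpoint gene, was lower in CP, with a difference of -3.65 ± 0.15 (adjusted p = 3.13e-08), while LINC-BUB1B-2, 20014 bases away, was at 0.101 to 0.857 in the germinal zones and 1.15, 2.02 and 1.73 in CP (0.97 ± 0.14, adjusted p = 0.000168). LINC-BUB1B-2 reached 1 FPKM only in CP and entered the set through it. SOX11, a factor of young neurons, was lower in CP (-0.58 ± 0.12), while LINC-SOX11-14, 205590 bases away, was at 0, 0 and 0.132 in VZ and 2.74, 1.61 and 2.87 in CP (1.44 ± 0.16). The glucose transporter gene SLC2A12 was highest in VZ (4.87, 16.9 and 3.34) and LINC-SLC2A12-2, 82088 bases away, was highest in CP (18.7, 10.3 and 8.86). CPLX1, a gene of synaptic vesicle release, was higher in CP (1.63 ± 0.18) and LINC-CPLX1-1 lower (-0.49 ± 0.09), at 2.07 to 2.62 against 2.95 to 4.85.

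A few loci differed between library numbers. These loci were named after their values were seen. A test of library number with layer in the model, added after the data were seen, called 14 of the 530 loci (2.64%), where it called 0.829% of all genes. The labels do not say what a number stands for. LINC-RPL6-197 (chromosome 3, 54729193 to 54754641) was listed at 0 in all 4 libraries numbered 1, and at 60.1 and 83.3 in VZ 2 and VZ 3, 74.6 and 88.7 in ISVZ, 69.8 and 73.3 in OSVZ, and 45.7 and 74.7 in CP (limma F test on number, adjusted p = 1.10e-08). LINC-RPL6-288, beside it, was likewise listed at 0 in the libraries numbered 1 and at 38.5 to 78.5 in the others, and LINC-RPL6-203, which lies within LINC-RPL6-197, at 0 and at 2.78 to 8.22. The gene CHIC1, to one side of the 3 loci on the same chromosome, was present in all libraries (1.15 to 2.25).

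The reverse pattern was seen in genes that are Y-linked in other mammals. DDX3Y was at 14.9, 14.7, 14.2 and 13.6 in the libraries numbered 1 and listed at 0 in the 8 others, and KDM5D, UTY and USP9Y were at 2.31 to 9.65 in the former and at 0 to 0.0119 in the latter. LINC-HSPA8-28 on chromosome 25 had the same course, at 3.14, 2.74, 3.73 and 4.79 in libraries numbered 1 and 0 to 0.0745 in the others (adjusted p = 7.48e-05). Each of these loci had the same value pattern in all 4 layers. With the 4 libraries numbered 1 left out, 177 loci differed between CP and the germinal zones in place of 212, and 68 between OSVZ and VZ in place of 110, with 8 libraries in the fit.

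The libraries numbered 3 stood apart in LINC-FRMD8-1, which was at 31.9 to 67.8 in libraries numbered 3 and at 141 to 302 in the others (adjusted p = 0.00263). LINC-DRAXIN-1 was listed at 0 in the 4 libraries numbered 3 and at 1.60 to 14.9 in the others, and LINC-UST-4 was lowest in number 2 in each layer. Also called by number were LINC-SPACA6-1, LINC-TBX19-7, LINC-KLC1-1, LINC-ARIH1-2 and LINC-RAB26-1. The F test over layers did not pass in 13 of the 14 loci. Other scalings or a pseudocount of 0.1 gave 12 to 15 loci.

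**Figure D5:**
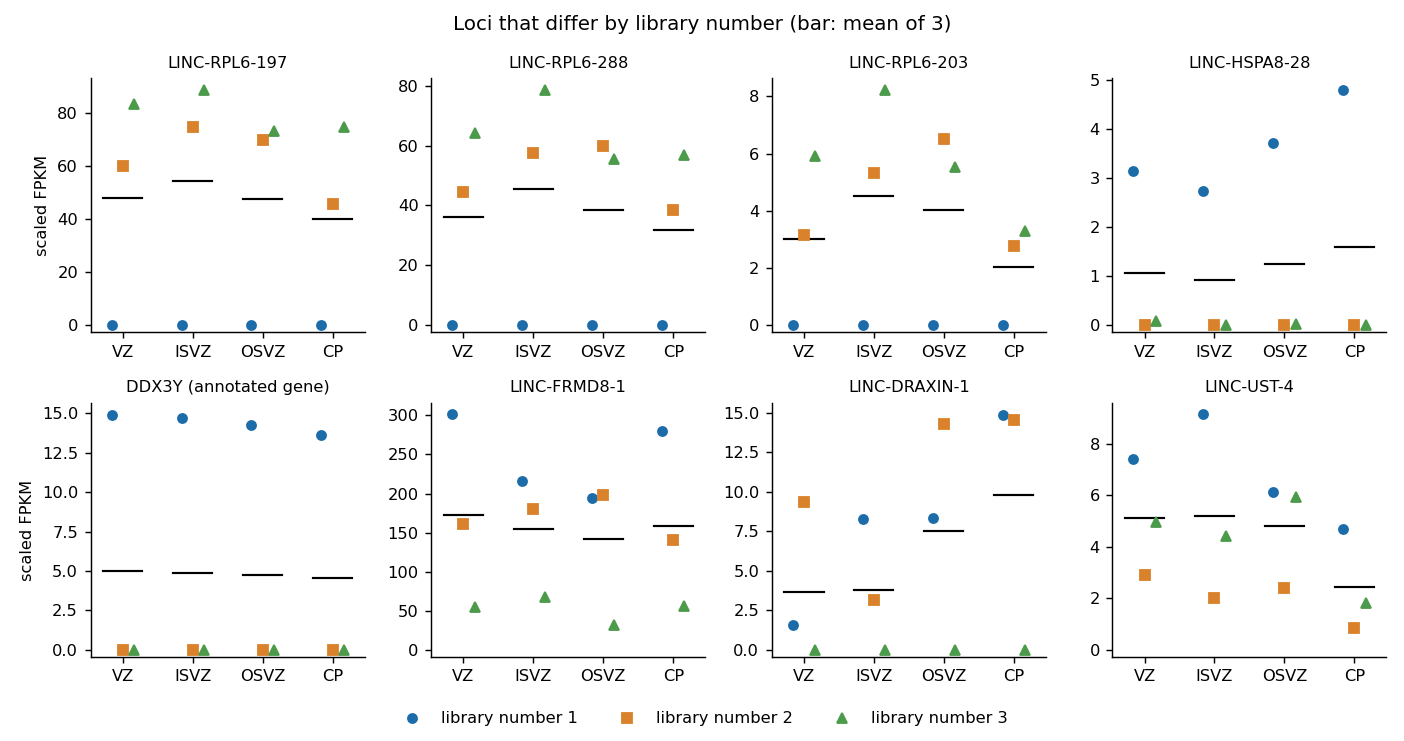
Scaled FPKM (y axis, from 0) by layer (x axis) of 7 LINC loci and the annotated gene DDX3Y, with 1 point per library, its shape and colour giving the library number, and a bar at the mean of 3. LINC-RPL6-197, LINC-RPL6-288 and LINC-RPL6-203 are at 0 in number 1 in all layers, LINC-HSPA8-28 and DDX3Y are at or near 0 in numbers 2 and 3, and LINC-FRMD8-1 is lowest in number 3.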

How the data were processed

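RNA from laser-cut cortical layers was sequenced in 12 libraries, 3 for each of 4 layers. For each library the authors deposited FPKM per gene ID, each with its lower and upper bound. The submitters' processing notes name HISAT2 and Cufflinks with no version, and no source used here gives the build, the annotation or the strand setting. FPKM are not counts, so no count test was used and read depth is unknown.

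Of 81792 entries per table, those with the same ID were summed (81418 IDs, 360 with more than 1 entry, 6 of them LINC loci of the set), and 4 IDs with a failed estimate were left out. Each library was divided by the median ratio to the geometric mean over 10200 genes at 1 FPKM or more in every library (factors 0.947 to 1.06), giving scaled FPKM. The 14106 IDs at 1 FPKM or more in at least 3 libraries were fitted with limma 3.58.1 (R 4.3.3) on log2(scaled FPKM + 1), with layer as the only term, an intensity trend and 8 residual degrees of freedom. Adjusted p is Benjamini-Hochberg over all 14106, with a threshold of 0.05. The 3 germinal layers have equal weight in their mean. Positions are those of the tables, counted from 1, and distance is the number of bases to the nearest numbered gene. The scripts were tested on simulated data.

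Loci named are, per comparison, those with the largest differences in each direction among loci that were called and whose libraries did not overlap between the sides (10 for CP against the germinal zones and for OSVZ against VZ, 5 for the others), the 6 with the highest mean level, the most strongly differing loci beside genes of each list, and all loci of a gene that names 4 or more. The loci, the gene lists and the tests were chosen with earlier results of these data known, and any other locus is named after its values were seen. A few loci and genes that this rule names or that were set beside them are not reported here.

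Alternatives were no scaling, equal summed FPKM, quantile normalisation, a pseudocount of 0.1, a filter of 5 FPKM in 3 libraries, no filter, no trend, the library number as a block, leaving out each library in turn, and, chosen after the data were seen, leaving out the libraries numbered 1, leaving out VZ 1 and VZ 2, and a test of library number with layer in the model. Whether equal numbers pair libraries was checked on deviations from layer means. Libraries of the same number correlated with r of 0.0639 to 0.426 (16 of 18 pairs above 0.1) and those of different number with r of -0.363 to 0.175. For ISVZ against VZ (lowest r 0.172) and CP against OSVZ (0.104) every pair was above 0.1, and for OSVZ against VZ (0.0639) and OSVZ against ISVZ (0.0843) not. No sequences are printed, since no genome was used here.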

Additional observations from a re-analysis of the deposited data

How the results depend on the processing

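Of 146 results on named loci with a call, 73 kept the call in every alternative in which the locus was tested, and among all 254 named results (annotated genes included) 550 of 5488 alternative values missed the threshold and 0 changed direction. With a filter of 5 FPKM, which leaves 169 of the 530 loci, 86 loci were called by the F test over layers, 78 for CP against the germinal zones, 48 for OSVZ against VZ, 12 for ISVZ against VZ, 6 for OSVZ against ISVZ and 53 for CP against OSVZ. With no filter, which adds rarely detected IDs to the adjustment, 150 loci were called by the F test and 155 for CP against the germinal zones. The other counts with no filter were 60 for OSVZ against VZ, 15 for ISVZ against VZ, 0 for OSVZ against ISVZ and 67 for CP against OSVZ. For ISVZ against VZ a pseudocount of 0.1 gave 23 loci, and for OSVZ against ISVZ it gave 0, quantile normalisation 4 and equal summed FPKM 1, and the cause of these was not tested. Without the 4 libraries numbered 1, which leaves 8 libraries, counts were 68 for OSVZ against VZ, 17 for ISVZ against VZ and 4 for OSVZ against ISVZ, and without VZ 1 and VZ 2, which leaves 1 library in VZ, they were 29, 5 and 0. Leaving out each library in turn gave 179 to 219 loci by the F test, 175 to 220 for CP against the germinal zones, 77 to 116 for OSVZ against VZ, 14 to 35 for ISVZ against VZ, 0 to 15 for OSVZ against ISVZ and 81 to 117 for CP against OSVZ. The 2 calls for OSVZ against ISVZ became 15 without ISVZ 1 and 7 without OSVZ 2, and 0 or 1 without any other library. With the library number as a block, counts were 250 by the F test, 238 for CP against the germinal zones, 135 for OSVZ against VZ, 45 for ISVZ against VZ, 2 for OSVZ against ISVZ and 134 for CP against OSVZ. The block changed 1 call of the 254, that of an annotated gene, and no call of a named locus. Each of the 12 libraries correlated best with its own number, which is a hint from the data and not from the design. Depth is unknown, and wide bounds at low FPKM limit what can be told of loci near 1 FPKM.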

Other observations

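Several loci were high in single libraries of different layers. LINC-MAPK6-2, a locus of mean 105 scaled FPKM, was at 469 in ISVZ 2, 206 in OSVZ 3 and 152 in CP 2, and at 31.4 to 83.9 in the other 9 libraries. LINC-MRPL42-8 was highest in the same 3 libraries, at 558, 210.4 and 204. Neither differed between layers by the F test (adjusted p = 0.601 and 0.727). Both loci were picked after their values were seen, and what the 3 libraries share was not tested.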
